A study of Mus musculus with 35 samples.

Results

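IAMP is a micropeptide of cardiac fibroblasts (CFs) that mice encode in 4930523C07Rik. The results below concern its knockdown with 1 small interfering RNA (siRNA), IAMP-siR-1 (siR-1), in primary adult mouse CFs that were treated with TGF-β. The comparison rests on 6 of the 35 libraries of the series, the 3 titled as siR-1 with TGF-β and the 3 titled as the scrambled control siRNA (Scrambled) with TGF-β, and all genes were taken. All 6 carried an siRNA and all 6 received TGF-β, so that by their labels the groups differ only in the siRNA. The other libraries were 3 of TGF-β-treated CFs with a further siRNA against IAMP, IAMP-siR-2 (siR-2), 9 of untreated CFs, 9 of IL-17-treated CFs and 8 of hearts, and were used here only to show where the siR-1 effect differs. The cells had been dissociated enzymatically from adult hearts, selected by adherence to collagen-coated plates and grown in medium with fetal bovine serum. The labels give neither the age and strain of the mice, nor how many animals gave cells, nor the dose and duration of TGF-β, and the treatment text attached to these libraries names IL-17. They also do not say whether the 3 replicates were separate cultures, so the p values measure only the spread between these libraries, which may be technical.

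CFs make and remodel the collagen matrix of the heart. TGF-β signals through a pair of receptor kinases to SMAD2 and SMAD3 and turns CFs into myofibroblasts, which build contractile stress fibers of smooth muscle actin and secrete matrix. Fibroblasts also answer inflammatory signals, among them IL-17 and IL-1, by releasing chemokines, IL-6 and matrix metalloproteinases.

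The 6 libraries held 105068333 to 106962479 estimated counts each, a unit in which 1 read pair stands for up to 6 counts, and levels are given as CPM, the counts scaled to the effective library size. A gene was called where the adjusted p of edgeR's quasi-likelihood test (Benjamini-Hochberg over the 19891 genes tested) was at most 0.05 and the groups differed at least 1.5-fold. Genes that met the first condition only are described as passing the test without the fold. Of 10 fibroblast markers all were tested, 1 was called higher and 1 lower, and their summed level was 14653 to 15269.6 CPM with Scrambled and 15108 to 15459.5 CPM with siR-1. Of 12 cardiomyocyte markers 6 were tested, and the 12 summed to 5.90 to 6.75 CPM with Scrambled and 4.44 to 6.16 CPM with siR-1. Endothelial markers (8) summed to 118 to 119.7 and 127 to 129.6 CPM, Schwann cell markers (4) to 8.89 to 9.86 and 8.43 to 9.40 CPM and adipocyte markers (4) to 9.39 to 11.5 and 9.37 to 10.0 CPM, while those of lymphocytes (4) and erythroid cells (5) stayed under 1 CPM in every library. Macrophage markers (8 of 8 tested, 2 of them called lower) summed to 155 to 164 CPM with Scrambled and 125 to 139 CPM with siR-1, pericyte markers (6 of 6 tested, 1 called lower) to 90.9 to 93.6 and 66.9 to 69.7 CPM, and mesothelial markers (6 of 6 tested) to 41.9 to 48.1 and 30.0 to 34.4 CPM. In bulk RNA, fewer cells of a type and less RNA per cell cannot be told apart. The part of these markers in the results below was not tested. Replicate 2 of siR-1 also held transcripts of liver cells, such as Apoa2, at 0.423, 3.85 and 0.457 CPM in siR-1 replicates 1, 2 and 3 in turn, and so did replicate 3 of siR-2, with Apoa2 at 0.510, 0.460 and 9.83 CPM in the siR-2 libraries.

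The siRNA lowered its target. 4930523C07Rik (chr1:160044382-160080208 on GRCm38) stood at 19.4, 19.8 and 23.0 CPM with Scrambled and 4.66, 4.07 and 4.49 CPM with siR-1, so 21.2% of the transcript remained. Across the transcriptome, 487 genes (2.45%) were called higher and 380 (1.91%) lower. Without replicate 2 of siR-1, the library with the liver transcripts, the counts were 405 and 378. A further criterion, no overlap between the groups, was met by 3673 genes (18.5%) that lay above in all 3 siR-1 libraries and 3699 (18.6%) that lay below. Protein-coding genes made up 386 of the genes called higher and 361 of those called lower. The median log2 fold change over all genes tested was 0.0003, the value beside which the medians of the gene lists below are to be read.

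**Figure D1:**
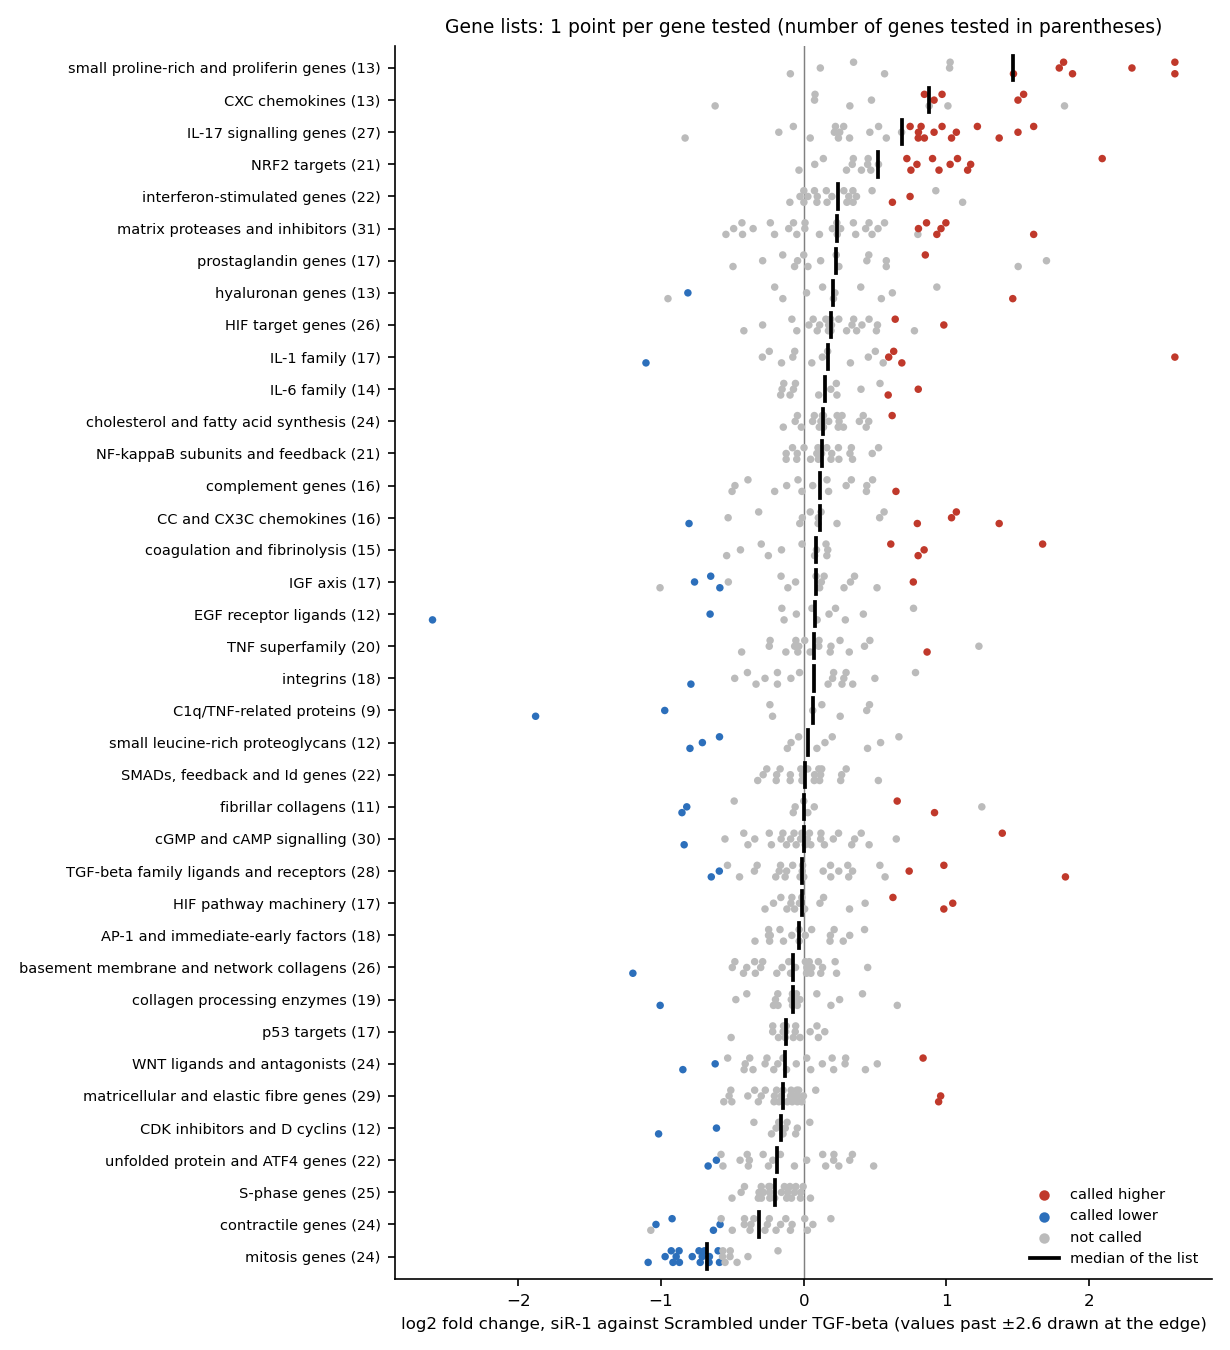
Each point is 1 tested gene of a list, placed by its log2 fold change between siR-1 and Scrambled under TGF-β (x axis). Red points were called higher, blue points lower and grey points not called, black bars are list medians, the number of genes tested stands in parentheses, and 4 points of genes near 0 CPM in 1 group are drawn at the edge of 2.6. The CXC chemokine, IL-17 and NRF2 lists lie mostly to the right of 0, and the mitosis and contractile lists mostly to the left.

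Genes of the antioxidant program rose with siR-1. NRF2, a transcription factor that is held inactive by KEAP1 until electrophiles or oxidants modify the latter, drives genes for glutathione synthesis, NADPH supply, iron storage and heme breakdown. Of 21 such targets tested, 10 were called higher beside 2.45% of all genes, 18 passed the test upward with or without the fold beside 11.7%, and 19 lay above in all siR-1 libraries beside 18.5%. The median of the list was 0.52. Hmox1, the heme oxygenase that opens the heme ring, stood at 290.5, 281 and 286 CPM with Scrambled and 1205, 1233 and 1217 CPM with siR-1. The groups are far apart, and the difference was 4.26-fold (log2 fold change 2.09, SE 0.037, adjusted p = 5.43e-16, edgeR quasi-likelihood test). Gclm, the regulatory subunit of the enzyme that limits glutathione synthesis, rose from 78.4, 75.9 and 74.5 CPM to 176, 170.3 and 169 CPM (log2 fold change 1.17, SE 0.037, adjusted p = 2.75e-12). Its catalytic partner Gclc rose from 45.4, 43.8 and 44.1 CPM to 82.6, 89.0 and 85.7 CPM. Both subunits thus increased by similar factors, 2.25-fold and 1.93-fold, with no overlap between the groups. Slc7a11, the cystine importer that feeds this pathway, rose from 23.9 ± 1.99 to 52.992 ± 3.91 CPM (SD, n = 3), Taldo1 of the pentose phosphate pathway from 65.3 ± 1.96 to 138 ± 5.37 CPM and the glutathione transferase Gsta4 from 4.49 ± 0.270 to 9.13 ± 0.478 CPM. Nfe2l2, the gene of NRF2 itself, passed the test without the fold (185 ± 3.40 against 253 ± 8.80 CPM, log2 fold change 0.45), as did Txnrd1 (0.52) and G6pdx (0.47).

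NRF2 binds the antioxidant response element, here searched as TGACNNNGC on both strands of the 300 bases around each start site (250 before and 50 after, RefSeq promoters on GRCm38.p6). Of 17 NRF2 targets with such a promoter, 8 (47.1%) held the element, beside 2165 of the 13055 tested genes with a promoter (16.6%). Among all 299 genes called higher that had a promoter the share was 16.4%, so the element was about as frequent there as in all genes. A match describes letters and not a bound site. The example of Gclm, with the element in capitals and read on the strand of the gene, is shown because Gclm was among the targets that rose most.
Gclm, chr3:122245413-122245441, plus strand: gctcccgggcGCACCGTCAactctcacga

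**Figure D2:**
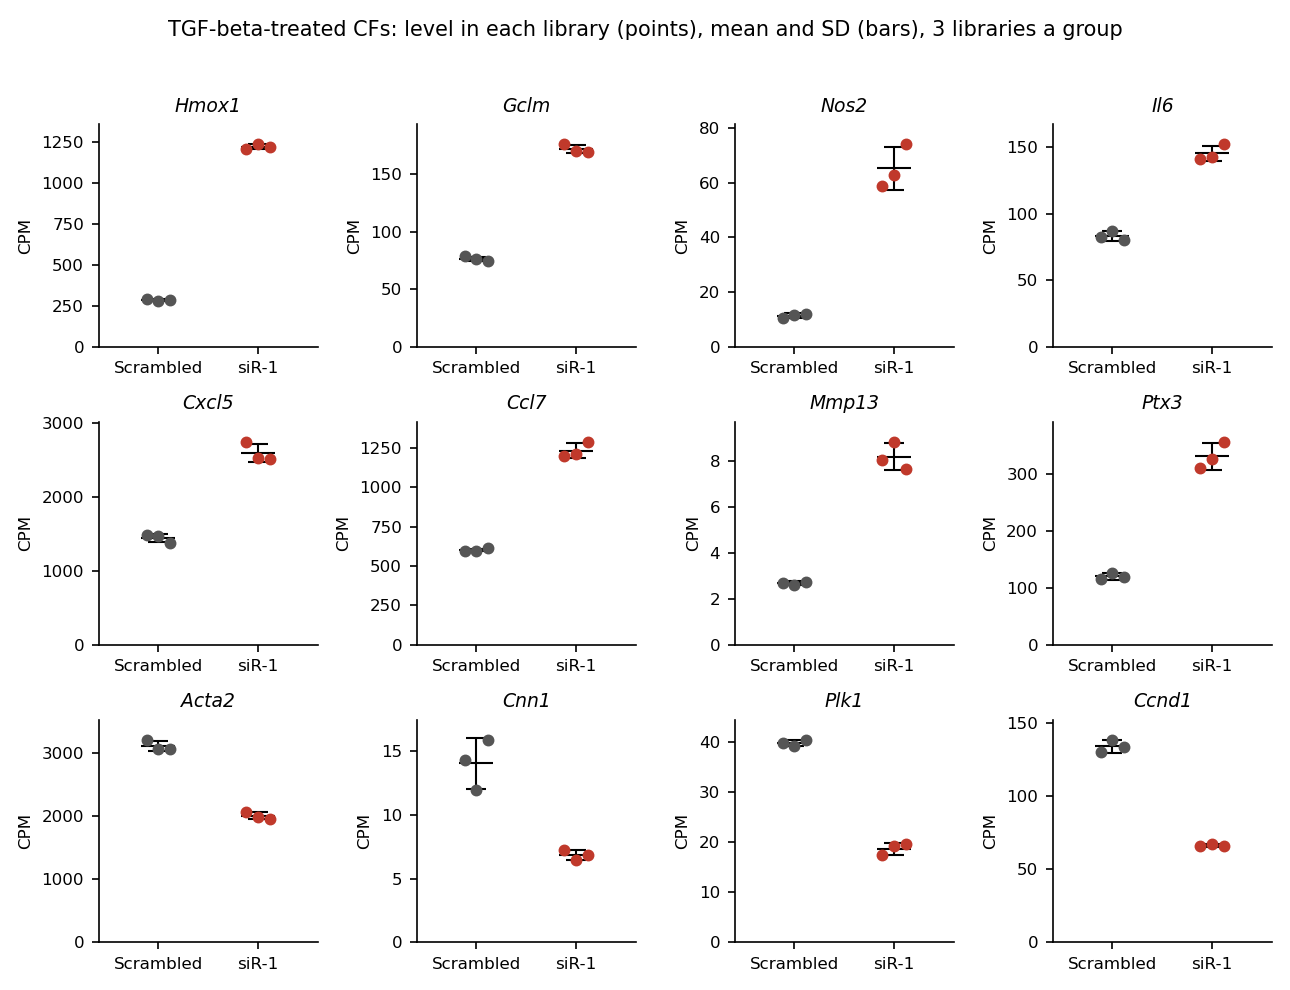
Level in CPM (y axis, from 0) of 12 genes in each TGF-β library, with Scrambled in grey and siR-1 in red. Points are libraries and bars are the mean and SD of 3 libraries. In every panel the 3 siR-1 points lie on one side of the 3 Scrambled points, from 1205 to 1233 against 281 to 291 CPM for Hmox1.

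Of 27 genes of IL-17 signaling, a pathway whose receptor acts through TRAF6, NF-κB and C/EBP factors on chemokines, IL-6 and metalloproteinases, 13 were called higher beside 2.45% of all genes, 22 passed the test upward beside 11.7% and 1 passed it downward. Il6 itself, a cytokine of the acute phase, rose from 82.7, 87.5 and 80.0 CPM to 142, 142 and 152 CPM (log2 fold change 0.80, SE 0.044, adjusted p = 8.99e-10). The receptor side of the pathway moved little. Il17ra and Traf6 passed the test without the fold at log2 fold changes of 0.25 and 0.32, and the factors Cebpb and Nfkbiz at 0.46 and 0.52. Il17ra is named although it fell outside the naming rule. Of 21 NF-κB subunits and feedback genes none was called in edgeR and the median was 0.12. Without the fold, 10 passed the test upward beside 11.7% of all genes.

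Among the CXC chemokines, which recruit neutrophils and lymphocytes, 5 of 13 were called higher beside 2.45% of all genes. Cxcl5 stood at 1483, 1473 and 1383 CPM with Scrambled and 2745, 2531 and 2519.5 CPM with siR-1 (log2 fold change 0.85, SE 0.041, adjusted p = 1.69e-10). Cxcl1 stood at 215, 216 and 204 CPM and 428, 399 and 416 CPM (log2 fold change 0.97, SE 0.043, adjusted p = 6.11e-11). Cxcl3 stood at 5.28, 6.30 and 5.03 CPM and 14.7, 14.8 and 17.5 CPM (log2 fold change 1.501, SE 0.094, adjusted p = 4.16e-09). In these ligands of CXCR2 every siR-1 library lay above every Scrambled library, as in 18.5% of all genes, with folds of 1.797 to 2.83. Cxcl2, another of them, rose from 10.8 ± 0.779 to 20.3 ± 1.33 CPM. Cxcl9, a ligand of CXCR3 that interferon-γ induces, rose from 0.611, 0.790 and 0.774 CPM to 1.98, 1.59 and 2.76 CPM. Cxcl12, the ligand that many resting fibroblasts make, had a log2 fold change of 0.08 and did not pass the test; it is named outside the rule.

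The CC chemokines were divided. Of 16 of the CC and CX3C families tested, 4 were called higher beside 2.45% of all genes and 1 lower beside 1.91%. Ccl7, a chemoattractant of monocytes, rose from 597, 598 and 612 CPM to 1202, 1214 and 1288 CPM (log2 fold change 1.04, SE 0.036, adjusted p = 4.61e-12). Its neighbor Ccl2, which acts on the same receptor, stood at 1645, 1620.3 and 1563 CPM and 1665, 1637 and 1681 CPM, did not pass the test and overlapped between the groups (log2 fold change 0.046, adjusted p = 0.433). Ccl20, a ligand of CCR6, rose from 12.5, 11.2 and 10.1 CPM to 25.6, 21.0 and 24.4 CPM, and Ccl5 from 18.022, 18.9 and 19.1 CPM to 29.6, 29.3 and 38.2 CPM. The eotaxin Ccl11 rose from 0.386 ± 0.113 to 0.999 ± 0.230 CPM, a low level. Ccl17, a ligand of CCR4, fell instead, from 22.8, 23.2 and 20.8 CPM to 13.8, 11.9 and 12.6 CPM (log2 fold change -0.80, SE 0.072, adjusted p = 3.17e-07). Macrophages also express chemokines, and their markers were lower with siR-1 (above).

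Nos2, the inducible nitric oxide synthase, had the largest rise after Phc3 among genes called with at least 1 CPM on average. It stood at 10.3, 11.6 and 12.2 CPM with Scrambled and 58.7, 62.8 and 74.0 CPM with siR-1, a 5.73-fold difference (log2 fold change 2.52, SE 0.097, adjusted p = 7.29e-10). Slc7a2, a carrier of arginine, which is the substrate of that enzyme, rose from 99.0, 111 and 109.5 CPM to 333, 318 and 324 CPM (log2 fold change 1.61, SE 0.041, adjusted p = 9.04e-14). Ptx3, a long pentraxin of the innate response, rose from 115, 126 and 118.7 CPM to 310.1, 326 and 356 CPM (log2 fold change 1.46, SE 0.098, adjusted p = 2.49e-05). In all 3 genes the lowest siR-1 library was well above the highest Scrambled library, beside 18.5% of all genes in which it was above. In the untreated CF table Nos2 was near 0 with either siRNA. Of 16 complement genes, C1s1, a protease of the first component, was the only one called, beside 2.45% of all genes higher (146 ± 2.38 against 229 ± 11.9 CPM, log2 fold change 0.65), and C1ra passed the test without the fold (0.48). Of the interferon-stimulated genes 2 of 22 were called higher beside 2.45% of all genes, Gbp2 and Rsad2, and both lost that call whenever 1 library of either group was left out. Of 17 genes of the IL-1 family 4 were called higher and 1 lower, of 14 of the IL-6 family 2 were called higher, and of 20 of the TNF superfamily 1, beside 2.45% of all genes higher and 1.91% lower. Of these calls, that of Il1b was lost in 9 alternative settings, among them DESeq2 and every one that left out a library, that of Il33 in 4, that of Il18rap, the gene called lower, in 3, that of Clcf1 in 2 and that of Il1a in 1. Clcf1, a cytokine of the IL-6 family, rose from 14.9, 14.3 and 14.2 CPM to 21.0, 21.3 and 23.0 CPM, Il1a from 2.06, 2.02 and 2.02 CPM to 3.09, 2.87 and 3.25 CPM, and Tnfsf15 from 1.81, 1.25 and 1.797 CPM to 2.95, 3.12 and 2.79 CPM. Il33, an alarmin, stood at 1.01, 1.09 and 1.49 CPM with Scrambled and 1.86, 1.67 and 2.02 CPM with siR-1.

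Some matrix proteases rose, while their inhibitors did not reach the fold. Of 31 genes in this list, 6 were called higher beside 2.45% of all genes, with a median of 0.23. With or without the fold, 16 passed the test upward beside 11.7% and 3 downward beside 11.4%. With siR-2, 2 of the 31 were called higher against Scrambled beside 2.07% of all genes and 1 lower beside 5.44%, with a median of 0.014. In the direct test of siR-2 against siR-1 (below), 4 were called lower beside 3.12% of all genes and 2 higher beside 0.840%. The collagenase Mmp13 rose from 2.69, 2.601 and 2.75 CPM to 8.06, 8.83 and 7.68 CPM, 3.06-fold (log2 fold change 1.61, SE 0.095, adjusted p = 2.15e-09). Stromelysin Mmp3, which cleaves proteoglycans and activates other metalloproteinases, rose from 1501, 1489.7 and 1514 CPM to 2596, 2606 and 2662 CPM (log2 fold change 0.80, SE 0.030, adjusted p = 8.16e-12). Mmp8 and Mmp9, a collagenase and a gelatinase best known from leukocytes, rose from 10.2 ± 0.934 to 18.6 ± 1.15 CPM and from 1.89 ± 0.227 to 3.68 ± 0.341 CPM. The aggrecanase-related Adamts9 rose from 28.8, 30.5 and 35.4 CPM to 63.8, 59.8 and 65.3 CPM and Adamts12 from 33.9, 34.2 and 35.0 CPM to 71.6, 64.3 and 61.0 CPM. In each of the 6 genes every siR-1 library lay above every Scrambled library, as in 18.5% of all genes. Of the inhibitors, named outside the rule, Timp1 passed the test without the fold (log2 fold change 0.35), whereas Timp2 and Timp3 had values of 0.0093 and 0.0079 and did not pass.

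Many metalloproteinase promoters carry a site for AP-1, the FOS and JUN dimer, searched here as TGACTCA on both strands. The site was present in 45 of the 299 promoters of genes called higher (15.1%), in 12 of the 272 of genes called lower (4.41%) and in 682 of all 13055 (5.22%). By list, it was present in 4 of 19 promoters of matrix proteases (21.1%), in 4 of 18 of IL-17 genes (22.2%) and in 4 of 20 of contractile genes (20.0%). The contractile genes called lower, Myl9, Cnn1, Acta2 and Tagln, were not among those with the site. Besides Mmp13 and Mmp3, the proteases with the site were Mmp10 and Mmp12, which were not called, at log2 fold changes of -0.20 and -0.43. An AP-1 site can lie within an antioxidant response element, which happened in 80 of 16635 promoters (0.481%). Of 18 AP-1 and immediate-early factors none was called in edgeR. Without the fold, 3 passed the test upward beside 11.7% of all genes and 6 downward beside 11.4%. The sites of 5 genes called higher are printed because they come from different groups, a collagenase, a stromelysin, the coagulation starter F3, the protein C receptor Procr and the matrix gene Tnxb. Capitals mark the AP-1 site as read on the strand of the gene.
Mmp13, chr9:7272469-7272495, plus strand: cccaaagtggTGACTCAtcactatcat
Mmp3, chr9:7445766-7445792, plus strand: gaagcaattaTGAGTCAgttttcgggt
F3, chr3:121723392-121723418, plus strand: gaatcacggtTGAGTCAcccctttcgg
Procr, chr2:155751053-155751079, plus strand: cccaccccccTGACTCAgcggcgacct
Tnxb, chr17:34670470-34670496, plus strand: tgacctttacTGAGTCAgttctcacac

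Genes of mitosis were lower with siR-1. Cells that divide transcribe them in late G2 and M phase, when cyclin B with CDK1, PLK1 and Aurora kinases build and resolve the spindle. Of 24 tested, 16 were called lower beside 1.91% of all genes, 23 passed the test downward beside 11.4%, and all 24 lay below in every siR-1 library beside 18.6%. The median was -0.68. The kinase Plk1 stood at 39.9, 39.2 and 40.4 CPM with Scrambled and 17.4, 19.2 and 19.6 CPM with siR-1 (log2 fold change -1.09, SE 0.070, adjusted p = 6.22e-09). Ccnb2, a B-type cyclin, fell from 24.2, 24.3 and 21.2 CPM to 11.8, 12.4 and 11.3 CPM, and Prc1, which bundles microtubules of the midzone, from 36.3, 37.5 and 43.4 CPM to 19.9, 21.8 and 19.9 CPM. Cdc20 and Ube2c, which work with the anaphase-promoting complex, fell from 23.0 ± 1.08 to 12.2 ± 1.46 CPM and from 57.8 ± 2.87 to 31.1 ± 1.33 CPM. The kinesin Kif20a fell from 44.0 ± 1.18 to 24.0 ± 1.66 CPM. In these 6 genes the levels were 1.83- to 2.13-fold lower. Top2a, Bub1, Cenpe and Nusap1 passed the test without the fold, at log2 fold changes of -0.57, -0.57, -0.55 and -0.52.

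The S-phase genes, which copy DNA, showed less. Of 25 tested, 9 passed the test downward beside 11.4% of all genes, each without the fold, and the median was -0.20. Ccnd1, the D-type cyclin that starts the G1 phase in response to growth factors, fell from 129.7, 138 and 133 CPM to 65.6, 67.1 and 65.7 CPM (log2 fold change -1.02, SE 0.040, adjusted p = 1.88e-11). Among 17 p53 targets none was called in edgeR. Without the fold, 3 passed the test upward beside 11.7% of all genes and 6 downward beside 11.4%.

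Promoters of mitotic genes often carry the cell cycle homology region, searched as TTTGAA on both strands, which the DREAM and B-MYB complexes bind. Of 20 mitosis genes with a promoter, 15 (75.0%) held it, beside 1990 of 13055 genes (15.2%) and 56 of the 272 genes called lower (20.6%). The element close to the start site of 4 genes called lower is shown in capitals on the strand of the gene.
Cdc20, chr4:118437346-118437371, minus strand: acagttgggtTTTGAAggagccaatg
Cdk1, chr10:69352912-69352937, minus strand: ccgcggcgagTTTGAAactgctggca
Plk1, chr7:122159455-122159480, plus strand: cagcgccgcgTTTGAAttcggggagg
Ube2c, chr2:164769890-164769915, plus strand: agggttgcaaTTCAAAcgcgggcggc

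Contractile genes are the mark of the myofibroblast state. Of 24 tested, 4 were called lower with siR-1 beside 1.91% of all genes, 14 passed the test downward beside 11.4% and 1 upward, 9 did not pass it, and the median was -0.31. Myl9, the regulatory light chain of smooth muscle myosin, fell from 295, 271 and 284 CPM to 147, 151 and 151 CPM (log2 fold change -0.92, SE 0.035, adjusted p = 1.26e-11). Calponin, Cnn1, fell from 14.4, 11.956 and 15.9 CPM to 7.22, 6.50 and 6.88 CPM (log2 fold change -1.03, SE 0.11, adjusted p = 2.17e-06). Acta2, smooth muscle actin, and Tagln, transgelin, had smaller changes, 1.55-fold and 1.501-fold lower, and Tagln lay so close to the fold that it lost its call in 7 alternative settings. The tropomyosin Tpm2 (log2 fold change -0.50), smoothelin Smtn (-0.58), palladin Palld (-0.42) and leiomodin Lmod1 (-0.38) passed the test without the fold. Named outside the rule, Myh11, Des and Srf did not pass the test, at -0.24, 0.06 and -0.093, and Cald1 was higher at 0.19. Pericytes express several of these genes, and their summed markers were lower with siR-1 (above). Serum response factor, which drives contractile genes together with myocardin-related factors, binds the CArG box. A CArG box was found in 4 of 20 contractile promoters (20.0%) and in 211 of 13055 (1.62%), and that of Myl9, the gene of the list with a box that was called, is shown in capitals.
Myl9, chr2:156775293-156775322, plus strand: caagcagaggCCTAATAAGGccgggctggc

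Collagen genes moved in both directions. Of 11 fibrillar collagen chains 2 were called higher beside 2.45% of all genes and 2 lower beside 1.91%, with a median of 0.0008. Col3a1, the chain of type III collagen, and Col5a3, a chain of type V collagen, which starts fibril assembly, were higher, the latter at 30.0, 28.7 and 30.2 CPM with Scrambled and 55.9, 56.4 and 55.4 CPM with siR-1 (log2 fold change 0.92, SE 0.051, adjusted p = 8.98e-10). Col11a1 and Col27a1 were lower, the former at 313, 328 and 335 CPM and 186, 174 and 181 CPM (log2 fold change -0.85, SE 0.040, adjusted p = 1.21e-10). The 2 chains of type I collagen did not pass the test, with 4787, 4729.8 and 5051 CPM against 5258, 4978 and 5098 CPM for Col1a2 (0.074, adjusted p = 0.169). Col7a1, which forms anchoring fibrils, fell from 21.3, 19.5 and 22.5 CPM to 9.76, 8.32 and 9.51 CPM (log2 fold change -1.20, SE 0.087, adjusted p = 2.27e-08), the one gene called among 26 of basement membranes and network collagens, beside 1.91% of all genes lower. Plod2, the lysyl hydroxylase whose product gives collagen its stable crosslinks, fell from 594, 620.1 and 621 CPM to 307, 309.6 and 297 CPM, 2.01-fold (log2 fold change -1.01, SE 0.033, adjusted p = 3.3e-12), and was the one gene called among 19 collagen processing enzymes, beside 1.91% of all genes lower. Lox, the oxidase that starts crosslinking, passed the test upward without the fold (3658, 4006 and 3611 CPM against 4678, 4402 and 4344 CPM, 0.25). Fn1, fibronectin, stood at 6765, 7215 and 7532 CPM and 7377, 7019 and 6906 CPM and overlapped between the groups.

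Matrix proteins that bind collagen or growth factors were also divided. Tnxb, a tenascin of elastic skin and vessel matrix, rose from 28.3, 28.7 and 31.9 CPM to 57.4, 56.2 and 59.2 CPM, and Ccn3, a matricellular protein related to CCN2, from 9.02, 9.33 and 8.68 CPM to 16.8, 18.8 and 16.4 CPM. Of the 29 matricellular and elastic fiber genes these 2 were called, beside 2.45% of all genes called higher. Without the fold, 13 passed the test downward beside 11.4%. The small leucine-rich proteoglycan Aspn, which binds TGF-β and collagen, fell from 84.9, 88.2 and 79.8 CPM to 49.4, 49.1 and 47.1 CPM (log2 fold change -0.80, SE 0.052, adjusted p = 6.95e-09). Fmod fell from 149 ± 6.07 to 98.8 ± 3.98 CPM, though it lost its call in 4 alternative settings. Adamtsl2, a secreted protein that binds latent TGF-β binding protein and fibrillin, was among the 12 largest falls, from 124, 117 and 134 CPM to 43.9, 44.9 and 46.8 CPM (log2 fold change -1.47, SE 0.048, adjusted p = 3.04e-12). Ltbp2, of the latent TGF-β binding protein family, fell from 452, 425 and 469.7 CPM to 302, 275 and 283 CPM (log2 fold change -0.65, SE 0.042, adjusted p = 6.26e-09).

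Genes of the TGF-β pathway itself moved in both directions. Of 28 ligands, receptors and antagonists of the TGF-β family, 3 were called higher beside 2.45% of all genes and 2 lower beside 1.91%. With or without the fold, 11 of the 28 passed the test upward beside 11.7% and 9 downward beside 11.4%. Of 22 SMADs, feedback and Id genes none was called in edgeR, with 4 passing the test upward and 3 downward. Tgfb3 fell from 99.978, 98.5 and 103 CPM to 64.4, 67.8 and 67.8 CPM (log2 fold change -0.59, SE 0.039, adjusted p = 7.92e-09), a call lost in 2 settings that left out a library. Tgfb1 passed the test upward without the fold, with 164, 149.5 and 148 CPM against 179, 183 and 185 CPM (0.25). The type I receptor Tgfbr1 stood at 28.0, 31.6 and 30.6 CPM and 28.2, 26.0 and 26.5 CPM, overlapped between the groups and did not pass the test (adjusted p = 0.0545). Smad3, the main transducer, passed the test without the fold (67.0, 70.5 and 72.6 CPM against 84.5, 86.3 and 87.6 CPM, 0.30), and so did Id2, an inhibitor of helix-loop-helix factors (0.52). Pmepa1, a negative feedback gene of the pathway, was lower without the fold (899, 879 and 875 CPM against 725, 695 and 703 CPM, -0.32), and Smad7, the inhibitory SMAD, did not pass the test (-0.095).

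The hypoxia-inducible factors (HIFs) are α subunits that prolyl hydroxylases mark for decay in the presence of oxygen, and the chaperone HSP90 stabilizes HIF-1α. Their control lies largely in protein decay, which RNA does not measure. Hif1a transcript passed the test without the fold, at 358, 408 and 372 CPM with Scrambled and 524, 503 and 505 CPM with siR-1 (log2 fold change 0.43, SE 0.047, adjusted p = 3.21e-06). Epas1, which encodes HIF-2α, was called, at 304, 333 and 321 CPM and 499, 497 and 482 CPM (log2 fold change 0.63, SE 0.035, adjusted p = 1.19e-09). Egln3, a hydroxylase that HIF itself induces, rose from 6.19, 5.33 and 5.85 CPM to 9.94, 11.9 and 12.4 CPM (log2 fold change 0.98, SE 0.12, adjusted p = 6.76e-06). In the 3 genes all siR-1 libraries lay above all Scrambled libraries, as in 18.5% of all genes. Of 17 genes of the HIF machinery 3 were called higher beside 2.45% of all genes, Epas1, Egln3 and Hif3a (1.04). Of 26 HIF target genes, 2 were called higher beside 2.45% and 17 passed the test upward beside 11.7%, with a median of 0.19. Bnip3, a mitophagy receptor, was called beside Egln3 (29.8, 28.4 and 31.0 CPM against 41.7, 50.5 and 46.9 CPM). Vegfa passed without the fold (189, 184 and 191 CPM against 202, 212 and 223 CPM, 0.17), and the chaperones Hsp90aa1 and Hsp90ab1 did not pass, at 0.0066 and -0.030. With siR-2, none of these machinery and target genes was called higher against Scrambled, and the median of the targets was 0.14. In the direct test of siR-2 against siR-1 (below), 3 machinery genes and 2 targets were called lower, beside 3.12% of all genes.

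Of 17 genes of the insulin-like growth factor axis 1 was called higher beside 2.45% of all genes and 3 lower beside 1.91%. Igf1, the growth factor that fibroblasts supply to cardiac muscle, fell from 66.7, 68.8 and 65.5 CPM to 41.2, 41.0 and 36.1 CPM (log2 fold change -0.76, SE 0.058, adjusted p = 3.43e-08), and the receptor substrate Irs1 from 34.6, 36.1 and 34.0 CPM to 20.2, 22.6 and 23.9 CPM. Stc2, which blocks the cleavage of IGF binding proteins, fell from 54.9 ± 0.573 to 36.5 ± 1.73 CPM, a call lost in 5 alternative settings, and the binding protein Igfbp5 rose from 5.92, 5.00 and 5.16 CPM to 10.9, 7.33 and 9.18 CPM. Igf1 and Igfbp5 each showed no overlap between the groups, as did 18.6% of all genes downward and 18.5% upward. Igfbp5 was the 1 gene of the axis called higher. With or without the fold, 4 of the 17 passed the test upward beside 11.7% of all genes and 6 downward beside 11.4%. Of 24 WNT ligands and antagonists 1 was called higher and 2 lower, of 12 EGF receptor ligands 2 lower and of 18 integrins 1 lower, beside 2.45% of all genes higher and 1.91% lower. The call of Epgn, an EGF receptor ligand, was lost in 8 alternative settings and that of the WNT antagonist Nkd1 in 1. Dkk3, of the Dickkopf family of WNT modulators, fell from 198, 198 and 206 CPM to 116, 112 and 108 CPM (log2 fold change -0.85, SE 0.036, adjusted p = 4.45e-11), and Rspo3, which strengthens WNT signaling, rose from 3.84, 3.65 and 3.44 CPM to 6.37, 6.14 and 7.00 CPM. The EGF receptor ligand Hbegf fell from 56.5, 55.2 and 57.1 CPM to 34.5, 35.8 and 36.9 CPM, and the laminin-binding integrin subunit Itga3 from 53.7, 49.6 and 53.3 CPM to 32.2, 31.2 and 27.1 CPM. These receptors and ligands did not overlap between the groups, beside 18.5% of all genes that lay above in all siR-1 libraries and 18.6% below. Il1r1, the signaling receptor of IL-1, rose from 33.9, 34.2 and 33.9 CPM to 54.1, 55.0 and 55.1 CPM (log2 fold change 0.69, SE 0.047, adjusted p = 1.06e-08). 

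Of 15 genes of coagulation and fibrinolysis 4 were called higher beside 2.45% of all genes. A further 4 passed the test downward beside 11.4%, all without the fold. F3 (tissue factor), which starts the cascade, rose from 61.6, 65.2 and 57.9 CPM to 88.8, 100.4 and 92.8 CPM, the thrombin receptor F2r from 246, 263 and 262 CPM to 455, 449 and 441 CPM and the protein C receptor Procr from 40.5, 42.2 and 39.6 CPM to 70.6, 74.5 and 74.4 CPM. Leaving out Scrambled replicate 3 or siR-1 replicate 2 took F3 under the fold, at log2 fold changes of 0.57 and 0.56. Prkar2b, a regulatory subunit of protein kinase A, rose from 24.8, 20.7 and 21.5 CPM to 58.3, 60.3 and 57.1 CPM (log2 fold change 1.39, SE 0.066, adjusted p = 1.24e-10), the one gene called higher of 30 in cGMP and cAMP signaling, and Ptgir, the prostacyclin receptor, the one called of 17 prostaglandin genes, from 16.6, 17.0 and 16.6 CPM to 27.3, 31.1 and 32.1 CPM, each beside 2.45% of all genes called higher. In none of these genes did the groups overlap, beside 18.5% of all genes that lay above in all siR-1 libraries. Prkg2, a cGMP-dependent protein kinase, was lower, at 4.14, 4.21 and 3.54 CPM and 1.97, 1.81 and 2.87 CPM. Of 13 hyaluronan genes Ptx3 was called higher, beside 2.45% of all genes, and Hapln1, a link protein, lower, beside 1.91%, and the latter lost its call in 7 alternative settings.

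Genes at low levels filled much of the 12 largest rises and 12 largest falls among genes with at least 1 CPM on average. The rises held Sprr2g, Sprr2e and Ivl, genes of the cornified envelope of skin, at 2.77 ± 0.265, 2.11 ± 0.434 and 1.86 ± 0.463 CPM with siR-1 against 0.562 ± 0.122, 0.595 ± 0.102 and 0.589 ± 0.182 CPM with Scrambled. They also held the proliferins Prl2c2 (5.63, 5.45 and 3.99 CPM against 19.9, 19.7 and 16.006 CPM) and Prl2c3, placental hormones of the prolactin family. Of 13 tested genes of the small proline-rich and proliferin families 7 were called higher beside 2.45% of all genes. Both families consist of close copies, between which reads may be split, so the share of each copy is uncertain. Gbp11 and Ccdc85a completed the rises with 3.18- and 3.88-fold. The falls, after the target itself, began with C1qtnf3, an adipokine-like secreted protein (3.86, 3.80 and 3.29 CPM against 1.20, 0.719 and 1.05 CPM, log2 fold change -1.88, SE 0.20, adjusted p = 2.55e-06), and its relative C1qtnf1 was also called lower (-0.97). Klhl30, a kelch protein, fell from 27.8, 23.6 and 27.3 CPM to 8.58, 7.97 and 7.92 CPM (log2 fold change -1.69, SE 0.079, adjusted p = 1.24e-10). The other falls were Kcnk1, Dbh, Sox8, Adgra1, Ctsw, Tceal3, Gm49378 and the long noncoding RNA Gm36377, all between -1.79 and -1.41 on the log2 scale and under 10 CPM in every library. Gm49378 lost its call in 2 alternative settings.

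Which of these changes siR-2 shared was examined with the direct test between the siRNAs, because both comparisons with Scrambled use the same 3 control libraries. In that test 167 genes (0.840%) were called higher with siR-2 than with siR-1 and 620 (3.12%) lower. The counts were 175 and 650 without replicate 3 of siR-2, and 160 and 512 without replicate 2 of siR-1. Against Scrambled, siR-2 gave 412 genes called higher (2.07%) and 1082 lower (5.44%). IAMP transcript was itself lower with siR-2, at 2.92, 3.23 and 3.78 CPM (difference -0.41, SE 0.11, adjusted p = 0.00867). For many genes the siRNAs could not be separated. Ccnd1 stood at 65.0, 67.8 and 62.2 CPM with siR-2 (difference -0.025, SE 0.040, adjusted p = 0.738), Col11a1 at 179, 183 and 195 CPM (adjusted p = 0.476), Ltbp2 at 279, 291 and 294 CPM (adjusted p = 0.945) and Adamtsl2 at 43.9, 44.3 and 43.3 CPM (adjusted p = 0.597). A p over the threshold does not show that they act alike.

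Some mitotic and contractile genes were lower still with siR-2. Of the 24 mitosis genes 4 were called lower in the direct test, beside 3.12% of all genes. The list's median against Scrambled was -1.13 with siR-2 and -0.68 with siR-1. Of the 24 contractile genes 5 were called lower in the direct test, beside 3.12% of all genes. Cnn1 stood at 3.81, 3.78 and 3.11 CPM with siR-2 (difference -0.94, SE 0.11, adjusted p = 1.01e-05). Acta2 stood at 1466, 1547 and 1565 CPM (difference -0.40, SE 0.036, adjusted p = 4.18e-07). In the NRF2 list the median of the direct differences was 0.071. Hmox1 was lower with siR-2 than with siR-1, at 641, 688 and 702 CPM, between the Scrambled and siR-1 levels (difference -0.85, SE 0.036, adjusted p = 9.59e-11). With siR-2, 13 of the 27 IL-17 signaling genes and 5 of the 13 CXC chemokines were called higher against Scrambled, beside 2.07% of all genes. The IL-17 list's median was 0.56 with siR-2 and 0.69 with siR-1, and that of the CXC list 0.42 and 0.88. In the direct test 1 IL-17 gene was called higher, beside 0.840% of all genes. Of each list 1 gene was called lower, beside 3.12%. Il6 stood at 159, 167 and 151 CPM with siR-2.

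Other changes were present with siR-1 and were not seen with siR-2. Agtr1a, the angiotensin II receptor, rose from 6.91, 7.51 and 6.67 CPM to 15.6, 16.3 and 14.4 CPM with siR-1 and stood at 4.22, 4.32 and 4.52 CPM with siR-2 (difference -1.83, SE 0.087, adjusted p = 4.81e-10). Epas1 stood at 275, 278 and 271 CPM with siR-2 (difference -0.84, SE 0.035, adjusted p = 9.59e-11). Ccl20 stood at 8.97, 10.3 and 9.99 CPM with siR-2 (difference -1.28, SE 0.091, adjusted p = 2.96e-08). In all 3 genes the siR-2 libraries lay below the siR-1 libraries and within or below the Scrambled range. Adamts9 (33.8, 31.1 and 30.6 CPM, difference -0.98, SE 0.069, adjusted p = 2.69e-08), Ccl5 (18.2, 17.2 and 16.7 CPM, difference -0.90, SE 0.085, adjusted p = 7.41e-07), C1s1 (155, 158 and 149 CPM, difference -0.57, SE 0.039, adjusted p = 2.02e-08) and F3 (56.1, 58.3 and 56.8 CPM, difference -0.72, SE 0.051, adjusted p = 2.96e-08) were likewise lower with siR-2 than with siR-1. Id2 and Smad3 passed the test against Scrambled upward with siR-1 and stood at 23.9, 22.1 and 23.4 CPM and 61.5, 63.1 and 62.9 CPM with siR-2, with direct differences of -0.84 and -0.46.

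In the opposite direction, Plod2 fell less with siR-2, to 473, 477 and 495 CPM (difference 0.66, SE 0.033, adjusted p = 7.61e-10). Gnpnat1, which makes the sugar donor precursor of glycosylation, was lower with siR-1 without the fold (19.3, 16.3 and 20.1 CPM against 13.2, 12.6 and 14.5 CPM) and stood at 29.1, 33.1 and 33.7 CPM with siR-2 (difference 1.25, SE 0.083, adjusted p = 1.4e-08). Chchd4, of the import machinery of mitochondria, fell with siR-1 (9.09, 8.09 and 7.77 CPM against 4.81, 4.23 and 4.58 CPM) and stood at 10.5, 11.012 and 9.73 CPM with siR-2 (difference 1.20, SE 0.096, adjusted p = 1.15e-07). Lists of metabolism and protein folding also parted. Of 22 unfolded protein and ATF4 genes, 6 passed the test upward with siR-1 beside 11.7% of all genes and 12 downward beside 11.4%. In the direct test 5 were called higher with siR-2 than with siR-1, beside 0.840%. The list's medians against Scrambled were -0.19 with siR-1 and 0.19 with siR-2. Phgdh, the first enzyme of serine synthesis and an ATF4 target, is an example, at 128, 116 and 115 CPM with Scrambled, 86.2, 77.2 and 77.1 CPM with siR-1 and 130.0, 124 and 121 CPM with siR-2 (difference 0.64, SE 0.050, adjusted p = 8.37e-08). Of 24 cholesterol and fatty acid synthesis genes, 17 passed the test upward with siR-1 beside 11.7% of all genes. In the direct test 2 were called lower with siR-2 than with siR-1, beside 3.12%. Their medians against Scrambled were 0.14 with siR-1 and -0.14 with siR-2 over the 24 genes.

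**Figure D3:**
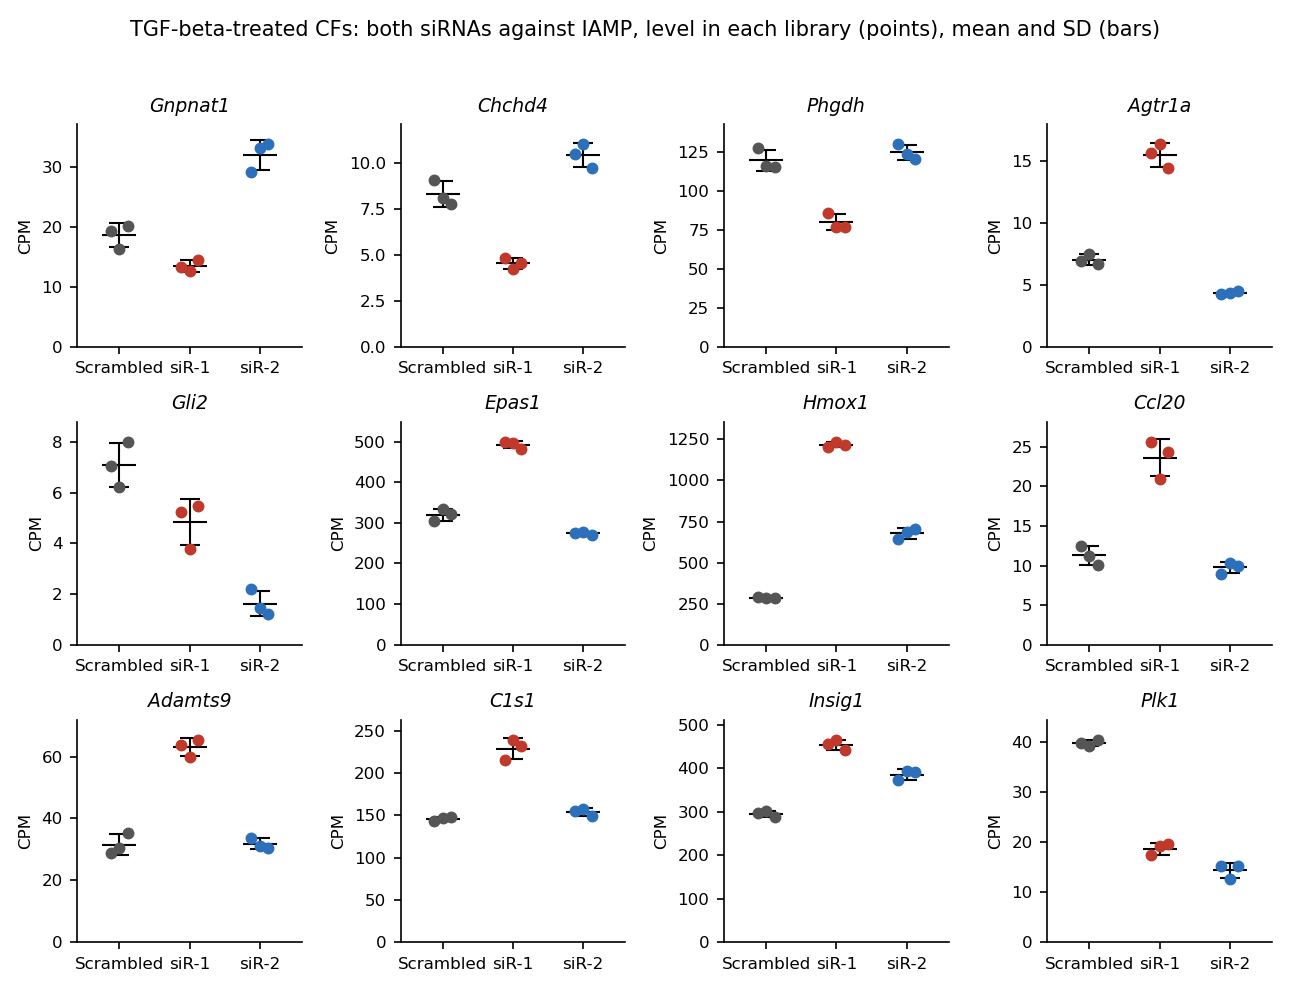
Level in CPM (y axis, from 0) of 12 genes in each TGF-β library, with Scrambled in grey, siR-1 in red and siR-2 in blue. Points are libraries and bars are the mean and SD of 3 libraries. Agtr1a, Epas1, Ccl20, Adamts9 and C1s1 are high with siR-1 alone, Chchd4 and Phgdh are low with siR-1 alone, and Plk1 is low with both siRNAs.

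Whether the siR-1 effect depended on TGF-β was tested as an interaction in joint fits with the untreated and with the IL-17 libraries. The stimuli were deposited in separate tables, so that stimulus and table cannot be told apart, and the difference between siRNAs within each table does not rest on levels across them. Against untreated CFs the siR-1 effect was at least 1 log2 unit higher under TGF-β in 318 of 20732 genes (1.53%) and lower in 193 (0.931%), and against IL-17 in 482 of 20922 (2.30%) and 206 (0.985%). Scrambled replicates 1 and 3 under IL-17 held liver transcripts, and without them the counts against IL-17 were 395 and 255. Without replicate 2 of siR-1 under TGF-β the counts were 287 and 195 against untreated CFs and 396 and 201 against IL-17. Knockdown of IAMP was weaker under TGF-β than in untreated CFs (difference 0.74, SE 0.15, adjusted p = 0.00147), with 22.4, 23.3 and 26.2 CPM in untreated Scrambled and 2.57, 3.57 and 3.05 CPM in untreated siR-1 libraries. The part of this gap in the results below was not tested.

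Of the contractile genes called under TGF-β, Acta2 and Tagln had effects of the opposite sign without TGF-β, Cnn1 did not pass the test there, and Myl9 fell in all 3 conditions. Acta2 fell with siR-1 under TGF-β, whereas in untreated CFs it stood at 1074, 1051 and 1079.9 CPM with Scrambled and 1307, 1279.9 and 1215 CPM with siR-1, a log2 fold change of 0.25 (difference -0.87, SE 0.048, adjusted p = 8.86e-10). Tagln had 0.24 in untreated and 0.30 in IL-17-treated CFs (adjusted p of the differences 1.43e-08 and 5.26e-10). Cnn1 stood at 1.55, 2.06 and 2.29 CPM and 2.16, 2.64 and 1.98 CPM in untreated CFs, where the siRNA groups overlapped (difference -1.23, SE 0.20, adjusted p = 0.000245). The median of the whole contractile list was -0.31 under TGF-β, -0.0076 in untreated and -0.058 in IL-17-treated CFs, and 10 of its 24 genes passed the test of the difference downward against untreated CFs, beside 10.1% of all genes, and 4 upward, beside 9.68%. Among the latter were Myl9, at -0.92 under TGF-β, -1.10 in untreated and -1.26 in IL-17-treated CFs, and Smtn, at -0.58, -0.92 and -0.85. Palld stood at -0.42, -0.43 and -0.43.

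Several inflammatory genes rose by a smaller factor under TGF-β than in untreated CFs, and from higher Scrambled levels. The differences below are on the log2 scale and do not compare gains in CPM. Cxcl5 stood at 30.4, 30.5 and 28.4 CPM with Scrambled and 291, 290.0 and 283 CPM with siR-1 in untreated CFs, a log2 fold change of 3.27 (difference -2.42, SE 0.058, adjusted p = 1.19e-14), against 1483, 1473 and 1383 CPM with Scrambled under TGF-β. Ccl7 had 2.31 (difference -1.27, SE 0.065, adjusted p = 4.66e-10) and Cxcl3 2.66 (difference -1.16, SE 0.23, adjusted p = 0.00137). Il6 and Mmp3 showed smaller gaps, with differences of -0.53 and -0.99. For Cxcl1 no difference could be shown (-0.44, SE 0.21, adjusted p = 0.199), nor for Nfkbia (-0.046, adjusted p = 0.781). Ccl2 went the other way (0.26, SE 0.062, adjusted p = 0.00489). Against IL-17-treated CFs the differences were -0.57 for Cxcl5, -0.76 for Ccl7, -0.92 for Cxcl3, -0.19 for Il6 and -0.0026 for Cxcl1. The median of the IL-17 list was 0.69 under TGF-β and 1.20 in untreated CFs, and 6 of its 27 genes had an effect at least 1 log2 unit lower under TGF-β, beside 0.931% of all genes. Without that size, 12 passed the test of the difference downward and 4 upward, beside 10.1% and 9.68%. The coagulation starter F3 differed more than these. It stood at 32.1, 32.7 and 30.3 CPM and 432, 438 and 437 CPM in untreated Scrambled and siR-1 CFs, and at 34.6, 31.2 and 32.6 CPM and 395, 377 and 382 CPM under IL-17. The rise was over 10-fold there and 1.53-fold under TGF-β (difference -3.17, SE 0.069, adjusted p = 4.51e-15).

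The receptor Tgfbr1 fell with siR-1 in untreated and IL-17-treated CFs and did not pass the test under TGF-β. In untreated CFs it stood at 117, 123 and 111 CPM with Scrambled and 50.4, 51.7 and 50.5 CPM with siR-1, and under IL-17 at 137, 132 and 141 CPM and 53.045, 51.5 and 49.1 CPM. Under TGF-β both siRNA groups lay between 26.0 and 31.6 CPM, and the effect differed from both conditions (difference 1.04, SE 0.073, adjusted p = 1.51e-08 against untreated). Of 11 fibrillar collagen chains, 6 passed the test of the difference downward against untreated CFs, beside 10.1% of all genes, and 1 upward, beside 9.68%. Col1a1 stood at 0.49 in untreated CFs (difference -0.49, SE 0.039, adjusted p = 8.93e-08), and Col5a3, the chain with the upward difference, at 0.26 in untreated CFs and 0.92 under TGF-β (difference 0.66, SE 0.072, adjusted p = 3.24e-06). The crosslinking oxidase Lox stood at 1.11 in untreated CFs (difference -0.85, SE 0.060, adjusted p = 1.8e-08). The NRF2 and mitosis lists had similar medians in all 3 conditions, 0.52, 0.49 and 0.58 for NRF2 targets under TGF-β, untreated and under IL-17, and -0.68, -0.75 and -0.73 for mitosis genes. Against untreated CFs, 9 of 21 NRF2 targets passed the test of the difference upward, beside 9.68% of all genes, and 4 downward, beside 10.1%. Hmox1 was among the latter (difference -0.53, SE 0.039, adjusted p = 3.68e-08). Of 24 mitosis genes 2 passed it upward. S-phase genes fell less under TGF-β, as 15 of 25 passed the test of the difference upward against untreated CFs, beside 9.68% of all genes. For Hif1a no difference could be shown, at 0.43 under TGF-β and 0.36 in untreated CFs (difference 0.076, adjusted p = 0.44).

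**Figure D4:**
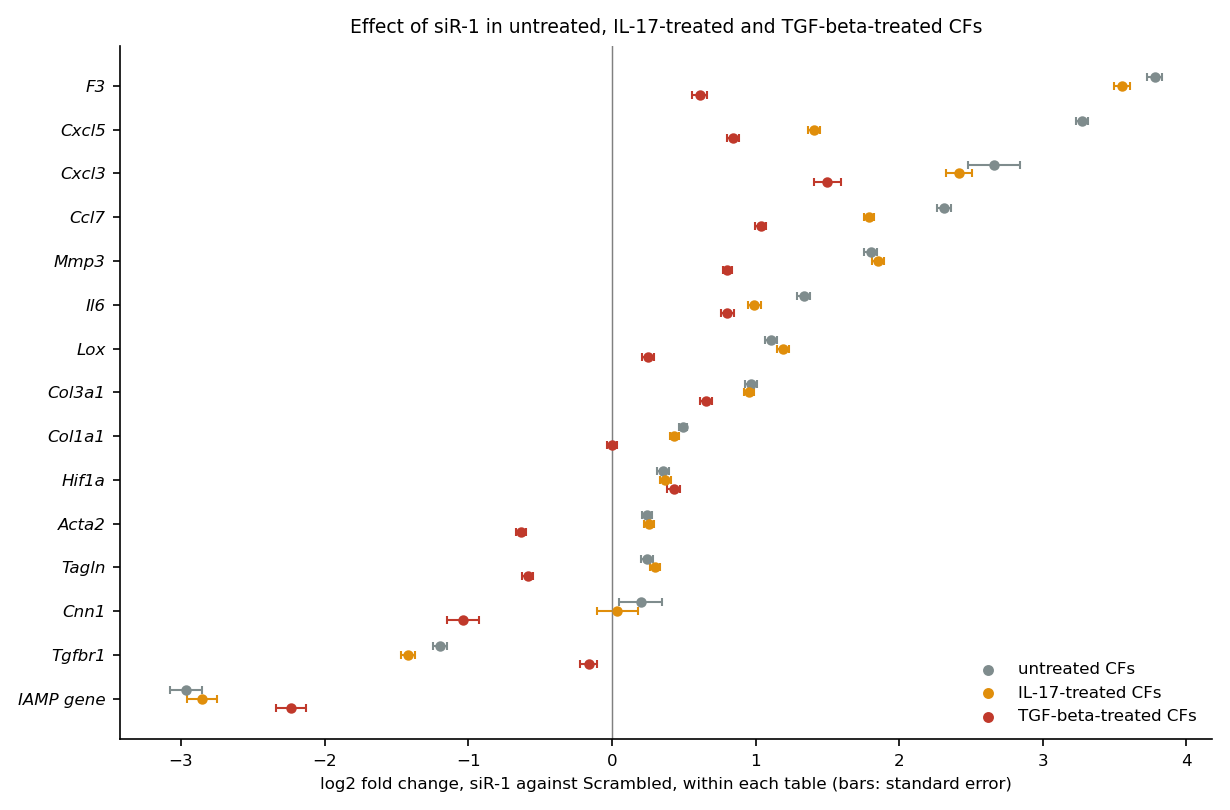
Effect of siR-1 against Scrambled (x axis, log2 fold change, bars are standard errors) on 15 genes in untreated (grey), IL-17-treated (orange) and TGF-β-treated (red) CFs, 3 libraries a group. Among the conditions shown, Acta2, Tagln and Cnn1 lie left of 0 under TGF-β only, F3 and Cxcl5 lie furthest right in untreated CFs, and Tgfbr1 lies near 0 under TGF-β only.

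Phc3, a subunit of the polycomb repressive complex 1, had the largest rise of all genes called with at least 1 CPM, from 7.50, 8.53 and 9.35 CPM to 53.1, 58.8 and 52.9 CPM (log2 fold change 2.70, SE 0.10, adjusted p = 3.81e-10). Over the 27 CF libraries its level took either of a pair of ranges, 7.65 to 15.3 or 52.8 to 72.6 CPM of the unscaled library, with no library between them. Libraries of 1 group fell into both ranges under IL-17, where siR-1 gave 15.3, 60.4 and 14.2 and siR-2 gave 13.6, 56.9 and 54.7. All untreated Scrambled libraries were in the upper range and all TGF-β Scrambled libraries in the lower one. Replicates of 1 group thus differed by up to 4.26-fold, beside 6.49-fold between siR-1 and Scrambled under TGF-β. A range over 3-fold within any CF group that averaged at least 10 CPM was found in 36 of the 9310 genes with at least 10 CPM on average in the 6 libraries, and of the 317 called among these in 2, Phc3 and Rsad2. What sets the level of Phc3 was not tested.

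**Figure D5:**
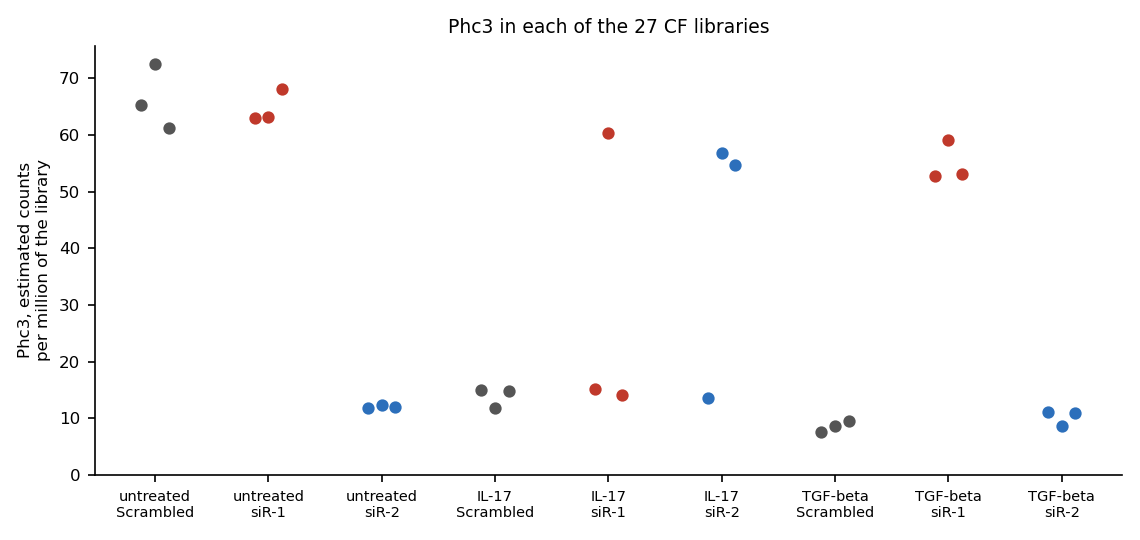
Level of Phc3 (y axis, CPM of the unscaled library) in each of the 27 CF libraries, by stimulus and siRNA (x axis). Each point is 1 library. The 3 siR-1 libraries under TGF-β sit between 52.8 and 59.1, the Scrambled and siR-2 libraries under TGF-β between 7.65 and 11.2, and the IL-17 siR-1 and siR-2 groups hold points at both heights.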

How the data were processed

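Total RNA was sequenced from the CFs, and per the labels and methods the authors trimmed reads with cutadapt, aligned them with HISAT2 to GRCm38 and quantified genes with StringTie. They deposited estimated counts per gene, 1 table per stimulus. These are coverage-derived, so 1 read pair is worth up to 6. The value 6 was the most frequent one among the 4120 genes that were above 0 in only 1 of the 9 TGF-β libraries. They were used as deposited. Intervals for single libraries are not given, and depth limits genes near 18 estimated counts (3 read pairs), for which no fold is given.

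Samples were grouped by title. The 9 TGF-β libraries were fitted together in edgeR 4.0.16 (R 4.3.3) with TMM scaling, filterByExpr and the robust quasi-likelihood test, leaving 19891 of 55487 genes, with Benjamini-Hochberg adjustment. SEs were derived from the log2 fold change and the F statistic. Interactions used 12 libraries each. The code was tested on simulated data. Library pairs within a group differed by 2.21 to 4.73 chi-square units per gene, so none was a duplicate. Replicate numbers did not pair the samples, since deviations of same-numbered libraries correlated at -0.184 to 0.136 over 13478 genes. Counting was not stated to use strand, so antisense partners cannot be told apart.

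The members and the 38 gene lists and 10 marker lists were chosen with earlier results of these data known. Genes were named by rule: 30 anchor genes, the 12 largest rises and falls called with at least 1 CPM on average and no overlap, up to 6 called and 4 further passing members per list, and the 6 largest differences in each direction of each further contrast. Some genes that the rule names are not reported here. Il36a was the list symbol not found in the table. Gene positions were those of GENCODE vM21. Alternatives were DESeq2 1.42.0, RLE size factors, other filters, fold thresholds, counts divided by 6, the compared groups alone, a replicate block and leaving out each library.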

Additional observations from a re-analysis of the deposited data

Results flagged for a closer look

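The interaction test of edgeR with Benjamini-Hochberg adjustment compared the siR-1 effects under TGF-β and in untreated CFs. Genes called with a difference of at least 1 log2 unit include the following 10. In these, every group averaged above a floor that was set higher than 3 read pairs per library. Scara5 fell under that floor, at 0.23, 0.416 and 0.246 CPM in Scrambled under TGF-β. Its siR-1 effect was 2.39 under TGF-β and -1.55 in untreated CFs (difference 3.94, SE 0.39, adjusted p = 1.02e-06). Others, such as Acta2, passed the test with smaller differences. The effect was lower under TGF-β by -3.17 log2 units for F3, by -2.42 for Cxcl5, by -1.27 for Ccl7, by -1.23 for Cnn1 and by -1.16 for Cxcl3. For Col28a1, a collagen of the nervous system and skin, the difference was -2.47, with 2.36, 2.61 and 2.48 CPM in Scrambled and 2.46, 2.35 and 2.82 CPM in siR-1 libraries under TGF-β, against 8.99, 7.75 and 8.91 CPM and 48.5, 47.0 and 49.7 CPM in untreated CFs. The groups overlapped under TGF-β and lay far apart without it.

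The effect was higher under TGF-β by 1.04 for Tgfbr1, by 2.63 for Phc3, by 2.599 for the receptor Gpr182 and by 2.82 for Ackr4, a scavenger of chemokines. Ackr4 fell in untreated CFs from 15.5, 16.4 and 18.98 CPM to 1.53, 1.60 and 1.75 CPM and stood at 4.70, 4.16 and 5.05 CPM and 3.38, 3.18 and 2.81 CPM under TGF-β. Gpr182 stood at 7.26, 7.42 and 7.59 CPM and 1.06, 0.916 and 1.11 CPM in untreated CFs, and near 1 CPM in both siRNA groups under TGF-β. In both receptors the TGF-β Scrambled libraries were thus below the untreated Scrambled ones, with stimulus and table not separable.

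Against IL-17-treated CFs the differences were -2.94 for F3, -1.07 for Cnn1, -1.05 for Mmp3, 1.25 for Tgfbr1 and 4.43 for Hpx. Hpx, the heme scavenger hemopexin of plasma, stood at 17.6 and 12.9 CPM in the IL-17 Scrambled replicates 1 and 3 and at 0.557 CPM in replicate 2. The same libraries held the liver transcript Serpina1b at 8.70 and 6.08 CPM against 0.042 CPM.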

How the results depend on the processing

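At a log2 fold change of at least 1, the siR-1 comparison kept 158 rises and 115 falls, and the direct contrast of the siRNAs had 49 genes above and 181 below. Without a fold threshold the counts for siR-1 were 2333 and 2263. With a difference of at least 1.5-fold, the interactions gave 726 and 493 genes against untreated CFs and 1049 and 539 against IL-17. Leaving out 1 library gave 405 to 505 genes higher and 324 to 378 lower for siR-1, 136 to 175 and 512 to 650 between the siRNAs, 275 to 351 and 178 to 230 against untreated CFs and 393 to 507 and 181 to 232 against IL-17. The replicate numbers did not pair the samples, and a replicate block gave 456 and 371, 153 and 597, 299 and 170, and 411 and 176 calls in the same order. DESeq2 gave 490 and 397 for siR-1. Leaving out IL-17 Scrambled replicates 1 and 3 together, chosen after seeing the data, gave 395 and 255 calls, of which 312 and 124 were also called with them. Among named genes, Iglon5 turned to -0.0797 without Scrambled replicate 3 (range without 1 library -0.0797 to 0.20) and Apoa2 to -0.51 without IAMP-siR-1 replicate 2 (range -0.51 to 1.78). Neither was called, and the library with the liver transcripts sets the value of Apoa2. Called named genes kept their direction in all 1617 values over the alternatives, and 1513 of these values also stayed past the threshold. Scaling moved the median of all genes by under 0.05 log2 units. Genes near 3 read pairs per library, such as Il1b, Epgn, Sprr2h and Prl2c5, have uncertain changes at this depth.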

Other observations

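Transcripts typical of hepatocytes were found in 1 of the 6 libraries compared and in 1 of the siR-2 libraries. In replicate 2 of siR-1, Serpina1b stood at 1.76 CPM and was listed at 0 in the other siR-1 libraries, and Apoa2, an apolipoprotein, stood at 3.84 CPM on the scale of the joint fit with the IL-17 libraries, which the values that follow share. Among the IL-17 libraries, Apoa2 stood at 6.77 and 3.48 CPM in Scrambled replicates 1 and 3 and at 0.186 CPM in replicate 2. The retinol carrier Rbp4 stood at 4.15 and 3.39 CPM there against 0.202 CPM. These genes were chosen as examples after their values were seen.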
